A study of Komagataella pastoris with 4 samples.

Results

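The genes of iron, copper, heme and iron-sulfur (Fe-S) cluster metabolism were examined in the methylotrophic yeast *Pichia pastoris* (*Komagataella pastoris* in the labels). The study gives *Komagataella phaffii* as the other name of this yeast. The genes were taken from the annotation text of the count table. A row was a member if a text column naming its protein held a word for iron, copper, heme, porphyrin, siderophore, frataxin, cupredoxin or an Fe-S cluster. Of 88 matching rows, 11 that also named a respiratory complex, NADH, superoxide, aconitase or catalase were dropped. This left 77 of the 5427 rows, with 20, 26, 13 and 18 of them on chromosomes 1, 2, 3 and 4. The rule used no measured value. The gene names below are those of the annotation, mostly by likeness to *Saccharomyces cerevisiae*.

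Iron and copper are cofactors of enzymes that move electrons, and each is toxic in excess, so yeasts regulate the uptake, storage and use of both. In *S. cerevisiae*, ferric reductases at the cell surface reduce iron and copper, a copper transporter imports copper, and a multicopper oxidase that needs copper works as a unit with an iron permease to import iron. Inside the mitochondrion iron is built into heme and into Fe-S clusters, which serve respiration, sterol synthesis and many other reactions.

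GS115 is a *his4* strain, a histidine auxotroph that the labels call wild type and that carries no antibiotic resistance. Dmxr1 is derived from GS115 and shares its histidine auxotrophy. In it a zeocin resistance cassette disrupts MXR1, which encodes Mxr1p, a transcription factor of the zinc finger kind. Both strains were grown for 14 h in yeast nitrogen base with ethanol, and each gave 2 libraries, numbered as replicates. Cultures were grown in duplicate according to the methods, and the p-values measure only the spread between these libraries. Growth of Dmxr1 on ethanol was retarded according to the study, and effects of growth cannot be told apart from other effects of the disruption. The RNA came from whole cultures, in which fewer expressing cells and less RNA per cell cannot be told apart either.

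The libraries held between 24140235 and 29402357 counts, and the members took between 1.22% and 1.35% of them. All 77 members passed the filter on low counts, with between 175 and 48026 counts in any library. The MXR1 row itself was counted in both strains, at 287 and 406 CPM (counts scaled to a common library size) in the GS115 libraries and at 206 and 259 CPM in the Dmxr1 libraries, always given with replicate 1 first. The log2 ratio of Dmxr1 to GS115 was -0.58 for this row (adjusted p = 0.0787), and a count over the whole row does not separate the disrupted from any remaining part. The table gives no gene length, so the results compare levels between libraries and not between genes.

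Among the 77 members, 3 were called, against 3.8% of all 5425 genes tested, in the comparison of Dmxr1 with GS115, that is, had an adjusted p of at most 0.05 in edgeR's quasi-likelihood test and a log2 ratio of Dmxr1 to GS115 of 1 or more in size. A multicopper oxidase of the type that works with the iron permease and a repressor described as heme dependent fell, and a copper amine oxidase rose. The 2 members that fell are 2.6% of the members, against 3.26% of those genes, and the 1 that rose is 1.3%, against 0.535%. At the adjusted p alone, 7 members were lower (9.09%, against 10.5% of all genes) and 10 were higher (13.0%, against 5.07%). The median log2 ratio of the members was 0.02, and that of all genes was 0.00. Both Dmxr1 libraries lay below both GS115 libraries in 26 members, against 31.3% of all genes, and above them in another 26, against 31.1%. The members lay on both sides of 0, and 74 of the 77 stayed under the fold threshold.

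**Figure D1:**
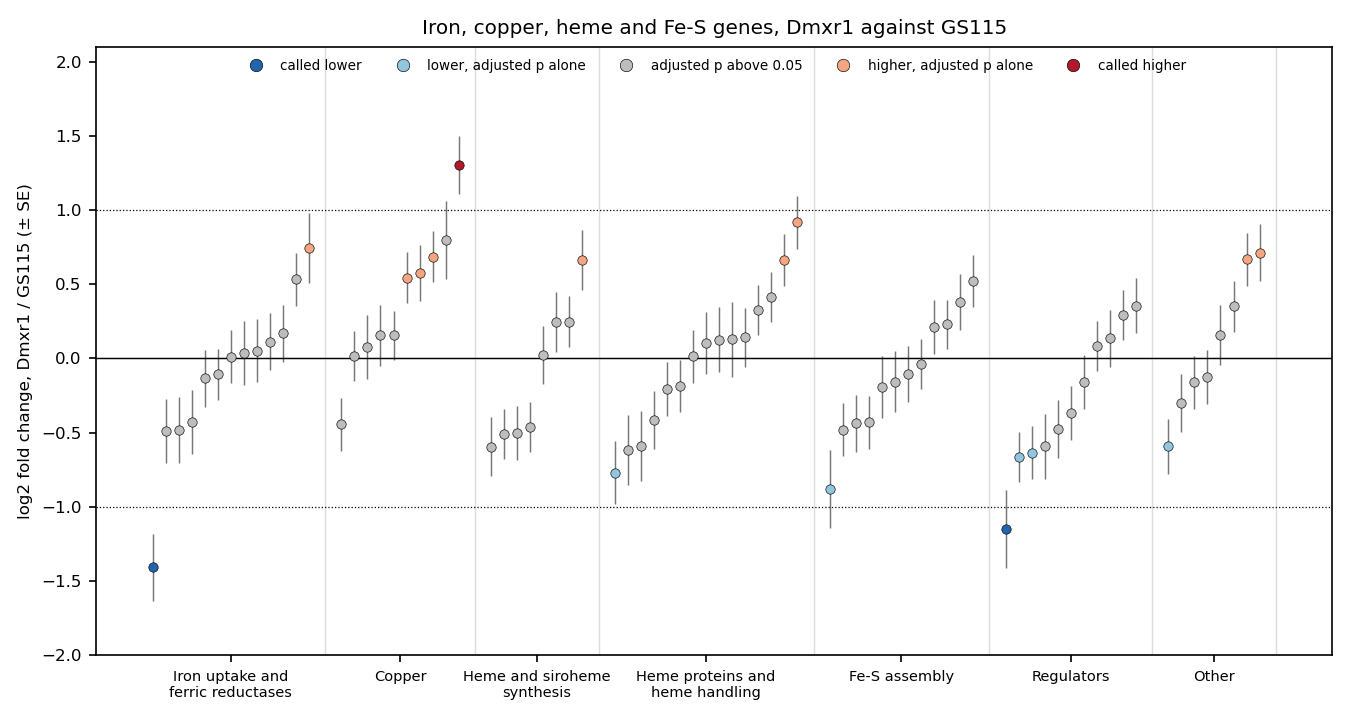
Log2 ratio of Dmxr1 over GS115 for all 77 members, grouped by the role given in their annotation and ordered by value within each role; bars are ± SE and dotted lines mark the fold threshold. Dark points are the 3 called members, and pale coloured points are the other 14 past the adjusted p, which fall on both sides of 0.

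The first class holds the proteins that bring iron into the cell. A single one of its 13 members was called, against 3.8% of all genes tested. This was ACIB2EUKG768606, annotated as a blue copper protein (cupredoxin) and named here multicopper oxidase A. In *S. cerevisiae* the oxidase of this type, Fet3, oxidises ferrous iron so that the permease Ftr1 can take it in. Multicopper oxidase A had 825 and 583 CPM in GS115 and 229 and 302 CPM in Dmxr1. Both mutant libraries lay far below both GS115 libraries. It fell 2.65-fold in Dmxr1, a log2 ratio of -1.41 (adjusted p = 0.00118, SE 0.23).

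The row next to it in the table, also on chromosome 1, is the permease ACIB2EUKG768605, which is described as a high affinity iron permease. The permease had 959 and 735 CPM in GS115 and 932 and 823 CPM in Dmxr1. Its strains overlapped, with a log2 ratio of 0.05 (adjusted p = 0.896, SE 0.21). The CPM of the oxidase divided by that of the permease was 0.860 and 0.792 in the GS115 libraries and 0.246 and 0.367 in the Dmxr1 libraries. This ratio, taken within each library and so free of scaling, did not overlap between the strains. It follows largely from the separate values, since the oxidase was far lower in both Dmxr1 libraries and the permease was not.

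A second row of the same type, multicopper oxidase B (ACIB2EUKG769887, chromosome 2), overlapped between the strains. It had 1640 and 1405 CPM in GS115 and 1451 and 1669 CPM in Dmxr1, with a log2 ratio of 0.03 (adjusted p = 0.929, SE 0.21). The CPM of oxidase A over that of oxidase B was 0.503 and 0.415 in GS115 and 0.158 and 0.181 in Dmxr1. This ratio too follows largely from the lower values of oxidase A. The files do not say how reads that align to both oxidases were counted.

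**Figure D2:**
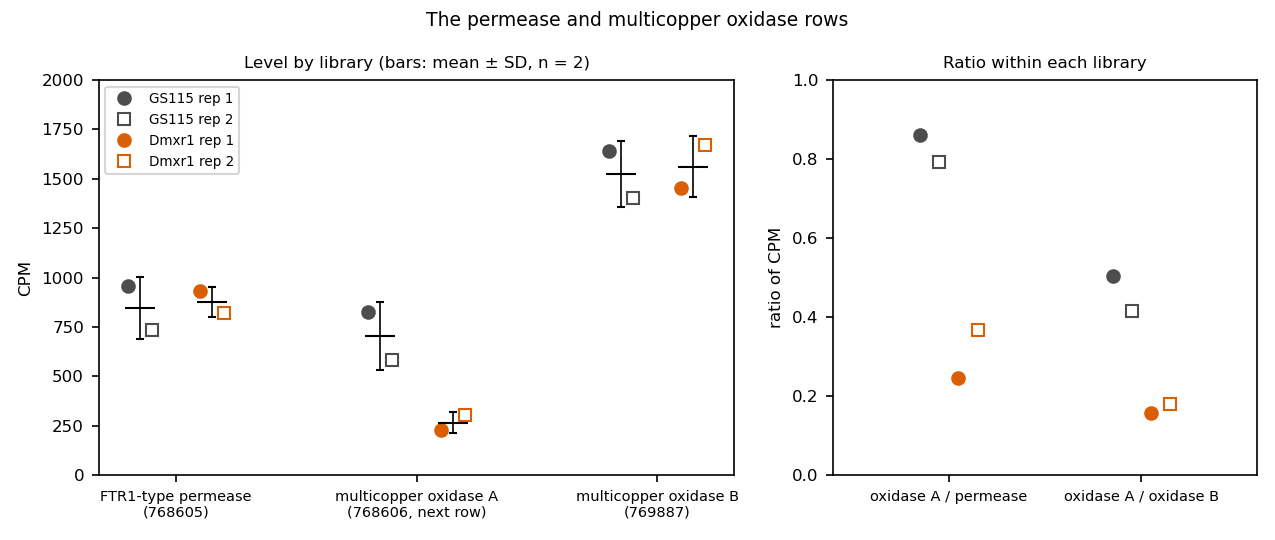
Left, CPM of the iron permease, multicopper oxidase A and multicopper oxidase B in each library, with the mean ± SD of each strain (n = 2). Right, the ratio of oxidase A to the permease and to oxidase B within each library; oxidase A and both of its ratios are lower in both Dmxr1 libraries, while the permease and oxidase B overlap between the strains.

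Ferric reductases, which reduce iron and copper outside the cell before uptake, numbered 4, and they differed among themselves. Ferric reductase B (ACIB2EUKG770949), described as a ferric/cupric reductase, had 499 and 699 CPM in GS115 and 832 and 1175 CPM in Dmxr1. Its Dmxr1 libraries both lay above its GS115 libraries, but the libraries within each strain also stood apart. The log2 ratio was 0.74 (adjusted p = 0.0421, SE 0.23). Leaving out GS115 replicate 1 gave an adjusted p of 0.214, and leaving out Dmxr1 replicate 2 gave 0.302. Ferric reductase C (ACIB2EUKG772617) had 128 and 137 CPM in GS115 against 67.6 and 122 CPM in Dmxr1, a log2 ratio of -0.48 (adjusted p = 0.152). The remaining reductases A and D had log2 ratios of -0.11 and 0.11.

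The remaining uptake proteins did not pass the test. The siderophore transporter ACIB2EUKG771305, which takes up iron bound to chelators made by microbes, had 277 and 182 CPM in GS115 and 146 and 181 CPM in Dmxr1. Its second libraries of both strains nearly coincided, and its log2 ratio was -0.49 (adjusted p = 0.129). The 3 divalent metal transporters of the SMF type, which carry manganese and iron, had log2 ratios of -0.43, 0.01 and 0.53. The last of these, ACIB2EUKG771246, is described as involved in iron homeostasis and had 94.3 and 119 CPM in GS115 and 158 and 152 CPM in Dmxr1 (adjusted p = 0.0556). The 2 low-affinity iron transporters of the FET4 type had values of -0.13 and 0.17.

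Of the 10 copper genes, 4 passed the adjusted p, and all 4 were higher in Dmxr1, against 5.07% of all genes tested. Copper amine oxidases oxidise primary amines to aldehydes with a copper ion in their active site. Copper amine oxidase A (ACIB2EUKG769032) had 13.7 and 13.0 CPM in GS115 and 28.7 and 37.3 CPM in Dmxr1. The GS115 libraries were nearly equal, and both mutant libraries held more than either. It rose 2.47-fold, a log2 ratio of 1.30 (adjusted p = 0.000705, SE 0.20).

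The other 2 rows with this description stood at smaller differences. Copper amine oxidase B (ACIB2EUKG770421) had 134 and 168 CPM in GS115 and 237 and 213 CPM in Dmxr1. Its log2 ratio of 0.57 (adjusted p = 0.0496, SE 0.19) was past the adjusted p by a narrow margin. Without GS115 replicate 1 its adjusted p was 0.252, without Dmxr1 replicate 1 it was 0.303, and without Dmxr1 replicate 2 it was 0.0872. Copper amine oxidase C (ACIB2EUKG772374) had a log2 ratio of 0.16 (adjusted p = 0.630), with overlapping strains.

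Both copper transporters of the CTR type had higher values in Dmxr1, and 1 of them passed the adjusted p. ACIB2EUKG769897, described as CTR2, which in *S. cerevisiae* releases copper from the vacuole, had 48.0 and 42.1 CPM in GS115 and 67.5 and 77.3 CPM in Dmxr1. It differed by a log2 ratio of 0.69 (adjusted p = 0.0153, SE 0.17), and without Dmxr1 replicate 2 the adjusted p was 0.103. The high-affinity plasma membrane transporter, CTR1 (ACIB2EUKG772868), had 286 and 496 CPM in GS115 and 544 and 817 CPM in Dmxr1. Its strain difference of 0.80 on the log2 scale (adjusted p = 0.0506, SE 0.26) was as large as the difference of 0.80 between its GS115 replicates. Its adjusted p was 0.0204 in DESeq2, and in edgeR 0.0483 with a replicate block and 0.0505 without the filter on low counts. It was past both thresholds without GS115 replicate 2 (1.25) and without Dmxr1 replicate 1 (1.06), and past neither without GS115 replicate 1 (0.45, adjusted p = 0.284) and without Dmxr1 replicate 2 (0.47, adjusted p = 0.317).

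Copper is handed on inside the cell by chaperones and pumps. SCO1 (ACIB2EUKG772818), which delivers copper to cytochrome c oxidase, had 68.1 and 81.9 CPM in GS115 and 115 and 103 CPM in Dmxr1. The log2 ratio was 0.54 (adjusted p = 0.0441, SE 0.17). Its adjusted p was 0.212 without GS115 replicate 1, 0.317 without Dmxr1 replicate 1 and 0.084 without Dmxr1 replicate 2. The chaperone ATX1, which passes copper to the pump that loads the multicopper oxidases in *S. cerevisiae*, had a log2 ratio of 0.08. Of the 2 rows described as that kind of pump, copper ATPase A (ACIB2EUKG770612) had 222 and 182 CPM in GS115 and 148 and 149 CPM in Dmxr1, a log2 ratio of -0.45 (adjusted p = 0.107, SE 0.18). It had the lowest value of the class, and the other pump stood at 0.16. The mitochondrial copper-binding protein CMC1 was almost level over the libraries, between 34.4 and 35.1 CPM.

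In heme and siroheme synthesis, 1 of 8 members passed the adjusted p, against 15.5% of all genes tested. HEM13 (ACIB2EUKG770992), coproporphyrinogen oxidase, is an enzyme of the pathway that uses oxygen. It had 480 and 568 CPM in GS115 and 862 and 800 CPM in Dmxr1, without overlap. This is a log2 ratio of 0.67 (adjusted p = 0.0360, SE 0.20), with adjusted p-values of 0.163, 0.246 and 0.09 without GS115 replicate 1, Dmxr1 replicate 1 and Dmxr1 replicate 2. Its neighbours in the pathway had other values. HEM4 and HEM12, which act before it, stood at 0.25 and 0.02, HEM14, which acts after it, at 0.25, and the ferrochelatase HEM15 (ACIB2EUKG771731), which inserts the iron, at -0.46 (adjusted p = 0.0772). Outside the members, the pathway enzyme 5-aminolevulinate synthase (ACIB2EUKG769968) stood at -0.50 (adjusted p = 0.0996). Delta-aminolevulinic acid dehydratase (ACIB2EUKG772597), also outside them, stood at 0.20 (adjusted p = 0.438).

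The members with the lowest values of this class use products of the pathway or a branch of it. COX10 (ACIB2EUKG767979), which takes heme a step towards the form that cytochrome c oxidase uses, had 125 and 83.6 CPM in GS115 and 63.0 and 75.3 CPM in Dmxr1. The log2 ratio of the strains was -0.59 (adjusted p = 0.0564, SE 0.20). MET1 and MET8, which make siroheme for sulfite reductase, both stood at -0.51 (adjusted p = 0.0732 and 0.0557). In these 3 and in HEM15 both Dmxr1 libraries lay below both GS115 libraries, as in 31.3% of all genes tested. None of them passed the adjusted p in edgeR. At an unadjusted p under 0.05, 4 members of the class were lower and 1 was higher, against 18.5% and 13.5% of all genes tested. DESeq2 placed 1 lower and 1 higher at its adjusted p, against 11.4% and 6.75% of all genes.

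Heme proteins and proteins that handle heme had 15 members, of which 3 passed the adjusted p, against 15.5% of all genes tested. The 15 include a D-lactate dehydrogenase (ACIB2EUKG770909) whose annotation names heme only for its transcription, at -0.19 (adjusted p = 0.487). Cytochrome b5 proteins carry electrons to oxygen-using enzymes such as desaturases, and 5 members held this domain. Cytochrome b5-domain protein D (ACIB2EUKG772644) had 80.6 and 80.9 CPM in GS115 and 173 and 132 CPM in Dmxr1. The GS115 libraries agreed closely, and the log2 ratio of 0.92 (adjusted p = 0.00375, SE 0.18) was just under the fold threshold. Without Dmxr1 replicate 1 its adjusted p was 0.0758, and without Dmxr1 replicate 2 it passed the fold threshold.

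Cytochrome b5-domain protein A (ACIB2EUKG768921) lay on the other side, at 63.2 and 39.7 CPM in GS115 and 27.0 and 33.1 CPM in Dmxr1. The second GS115 library was closer to the mutant than to the first, and the log2 ratio was -0.77 (adjusted p = 0.0245, SE 0.21). It was -0.40 (adjusted p = 0.252) without GS115 replicate 1, -0.63 (0.191) without Dmxr1 replicate 1 and -1.07 without GS115 replicate 2. The other b5-domain proteins B, C and E had values of -0.62, 0.13 and 0.10.

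The row described as a heme-degrading protein of the endoplasmic reticulum, heme oxygenase (ACIB2EUKG771878), had 87.8 and 68.9 CPM in GS115 and 122 and 126 CPM in Dmxr1. Heme oxygenase opens the heme ring and frees its iron. This row differed by a log2 ratio of 0.67 (adjusted p = 0.0192, SE 0.18), and its adjusted p was 0.0765, 0.0995 and 0.0732 without GS115 replicate 2, Dmxr1 replicate 1 and Dmxr1 replicate 2. The rows named only for a heme oxygenase fold stood at -0.20 and 0.01. Cytochrome c heme lyase (ACIB2EUKG769709), which attaches heme to cytochrome c, had 159 and 156 CPM in GS115 and 142 and 205 CPM in Dmxr1. The Dmxr1 libraries lay on either side of the GS115 libraries, and the log2 ratio was 0.14 (adjusted p = 0.651).

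Of the 12 members for Fe-S cluster assembly, 1 passed the adjusted p, against 15.5% of all genes tested. This was the scaffold protein ACIB2EUKG770602, the ISU1 type on which new clusters are built in mitochondria. It had 677 and 420 CPM in GS115 and 224 and 371 CPM in Dmxr1. GS115 replicate 2 was nearer to Dmxr1 replicate 2 than to GS115 replicate 1. The log2 ratio was -0.88 (adjusted p = 0.0333, SE 0.26). It was -0.50 (adjusted p = 0.219) without GS115 replicate 1 and -0.56 (0.341) without Dmxr1 replicate 1, and passed the fold threshold when GS115 replicate 2 was left out (-1.19) or Dmxr1 replicate 2 (-1.29).

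Frataxin (ACIB2EUKG768589), a mitochondrial protein that works with the scaffold in cluster assembly, had the highest value of the class. It had 67.4 and 72.7 CPM in GS115 and 112 and 89.6 CPM in Dmxr1, a log2 ratio of 0.52 (adjusted p = 0.0539, SE 0.17). The CPM of the scaffold over that of frataxin was lower in both Dmxr1 libraries, at most 4.14 there against at least 5.78 in GS115. This follows from the separate values, since the scaffold lay lower and frataxin higher in both Dmxr1 libraries. The late-acting ISA1 and ISA2 proteins stood at -0.44 and -0.43, and the NFU1-like rows at -0.10 and -0.04. A pair of proteins of the cytosolic pathway lay apart, CIA1 at -0.48 (adjusted p = 0.0789) and MMS19 at 0.38 (adjusted p = 0.178).

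Regulators described by iron, copper or heme had 11 members, of which 3 passed the adjusted p, all lower in Dmxr1. Of all genes tested, 10.5% were lower at the adjusted p. The ROX1-like repressor (ACIB2EUKG770734), described as a heme-dependent repressor of hypoxic genes, as Rox1 is in *S. cerevisiae*, had 2244 and 1473 CPM in GS115 and 651 and 1023 CPM in Dmxr1. Both mutant libraries lay below both GS115 libraries, while each strain's replicates also differed widely. It fell 2.22-fold, with a log2 ratio of -1.15 (adjusted p = 0.00895, SE 0.26). The call was lost without GS115 replicate 1, where the value was -0.82 (adjusted p = 0.0363), and without Dmxr1 replicate 1, where it was -0.86 (0.157).

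The HAP1-like factor (ACIB2EUKG770118) is named for a heme-responsive activator of *S. cerevisiae* in 1 annotation column and for peroxisome proliferation in another. It had 148 and 131 CPM in GS115 and 83.0 and 92.8 CPM in Dmxr1, a log2 ratio of -0.66 (adjusted p = 0.0169, SE 0.17). Its adjusted p was 0.0595 without GS115 replicate 1 and 0.197 without Dmxr1 replicate 1. The HAP complex activates respiratory genes in *S. cerevisiae*. Of the 3 rows described as its subunits, subunit C (ACIB2EUKG772566) had 84.3 and 64.2 CPM in GS115 and 47.3 and 48.3 CPM in Dmxr1. This is a log2 ratio of -0.63 (adjusted p = 0.0270, SE 0.18), with adjusted p-values of 0.186, 0.174 and 0.095 without GS115 replicate 1, Dmxr1 replicate 1 and Dmxr1 replicate 2. The other subunits stood at -0.47 and 0.29.

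The factors named for metal sensing did not pass the test. AFT1 (ACIB2EUKG768944), which activates iron uptake genes in *S. cerevisiae*, had 190 and 168 CPM in GS115 and 147 and 174 CPM in Dmxr1. Its strains overlapped, with a log2 ratio of -0.16 (adjusted p = 0.582). MAC1 (ACIB2EUKG771015), which activates copper uptake genes there, had 29.2 and 38.7 CPM in GS115 and 40.5 and 46.6 CPM in Dmxr1, a log2 ratio of 0.35 (adjusted p = 0.200) and the highest of the class. A GATA-type factor named for iron-responsive repression, and described in another annotation column as an activator of genes under nitrogen catabolite repression, stood at 0.08. FRA1-like aminopeptidase B (ACIB2EUKG770022), described as a negative regulator of the iron regulon, stood at -0.59 (adjusted p = 0.0784). FRA1-like aminopeptidase A stood at 0.14 (adjusted p = 0.658), and a BolA-like protein at -0.37 (adjusted p = 0.178). The strains did not overlap in these last rows, nor in 62.4% of all genes tested.

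The last class joins 8 members of intracellular transport and of uncertain role, of which 3 passed the adjusted p, against 15.5% of all genes. FTH1-type transporter B (ACIB2EUKG772376), which in *S. cerevisiae* releases iron from the vacuole, had 36.8 and 31.6 CPM in GS115 and 58.9 and 49.6 CPM in Dmxr1. The log2 ratio of the strains was 0.67 (adjusted p = 0.0196, SE 0.18). The adjusted p was 0.058 without GS115 replicate 2 and 0.218 without Dmxr1 replicate 1. FTH1-type transporter A (ACIB2EUKG770290), with the same description, overlapped between the strains at -0.12 (adjusted p = 0.671). CCC1, which moves iron and manganese into the vacuole in *S. cerevisiae*, stood at 0.35 (adjusted p = 0.174).

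The mitochondrial iron carrier (ACIB2EUKG772404), which brings iron to heme and cluster assembly, had 110 and 87.9 CPM in GS115 and 57.4 and 73.5 CPM in Dmxr1. All its mutant values lay below the GS115 values, and the log2 ratio was -0.59 (adjusted p = 0.0412, SE 0.18). The adjusted p was 0.194 without GS115 replicate 1 and 0.385 without Dmxr1 replicate 1. The row ACIB2EUKG771862, described only as related to copper and iron homeostasis, had 64.2 and 94.3 CPM in GS115 and 135 and 125 CPM in Dmxr1. It differed by a log2 ratio of 0.71 (adjusted p = 0.0216, SE 0.19). It was 0.46 (adjusted p = 0.164) without GS115 replicate 1, 0.66 (0.129) without Dmxr1 replicate 1 and 1.02 without GS115 replicate 2. For 2 members the annotation columns disagree on the protein, ACIB2EUKG772531 (an Fe-S cluster transporter or a zinc transporter) at -0.16 and ACIB2EUKG770464 (a copper transport protein or ataxin-10) at 0.16.

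**Figure D3:**
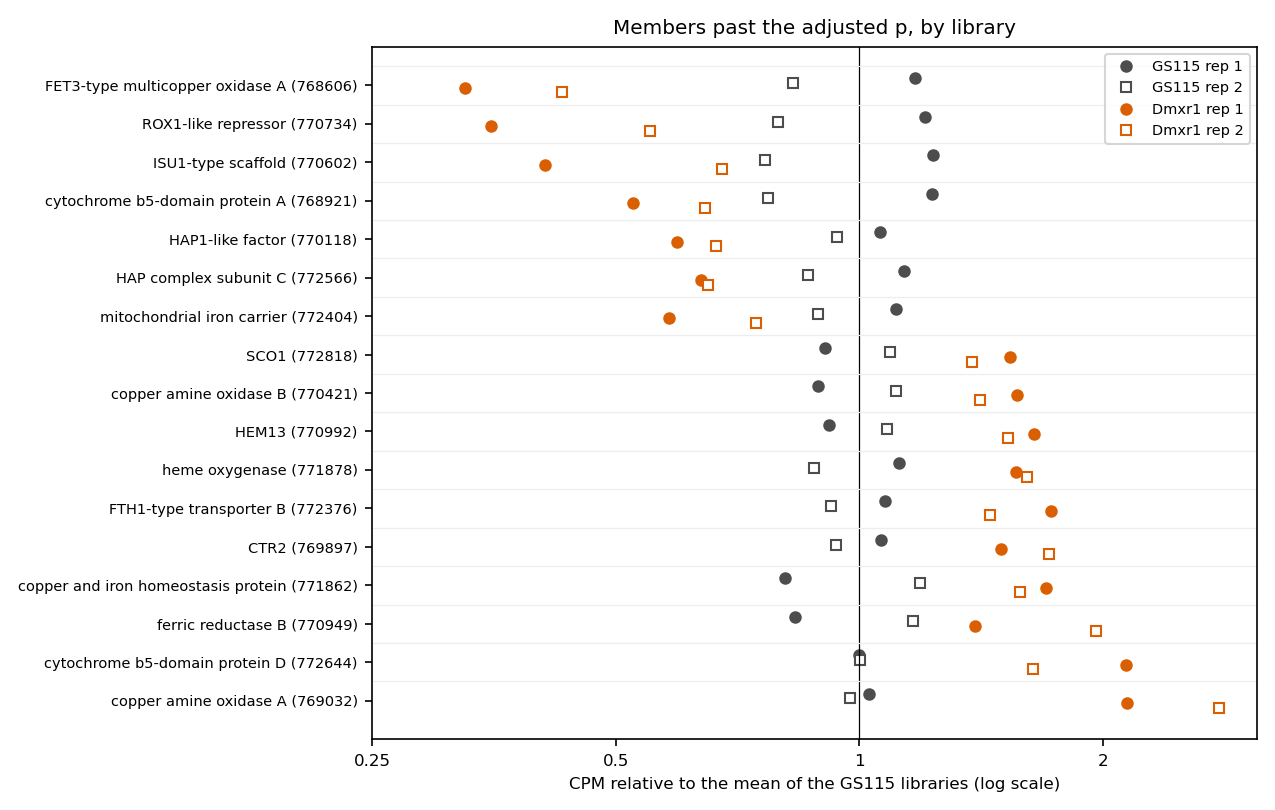
CPM of the 17 members past the adjusted p in each library, divided by the mean of the GS115 libraries, on a log scale; numbers in brackets end the gene identifier. The strains do not overlap in any of the 17, which were selected for a strain difference, nor in 62.4% of all genes tested. In all 7 lower members GS115 replicate 1 is the highest library and Dmxr1 replicate 1 the lowest.

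The libraries fell in a shared order among the members that were lower. In all 7, GS115 replicate 1 was highest, followed by GS115 replicate 2, Dmxr1 replicate 2 and Dmxr1 replicate 1. This order also held in 378 of the 567 genes lower at the adjusted p over the whole table, or 66.7%. In 5 of the 10 higher members the order was the reverse, against 41.5% of the 275 higher genes. The part of this difference between replicates in the strain comparison was not tested.

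The GS115 libraries also differed from each other in many members, which is given here as a description. The absolute log2 difference between those replicates had a median of 0.24 in the members and 0.20 in all genes tested, and it was 0.5 or more in 15 members (19.5%), against 9.42% of all genes. Multicopper oxidase A, the ROX1-like repressor, CTR1, the scaffold protein and cytochrome b5-domain protein A were among those 15. Copper amine oxidase A and cytochrome b5-domain protein D, by contrast, differed by 0.08 and 0.01 between the GS115 replicates.

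**Figure D4:**
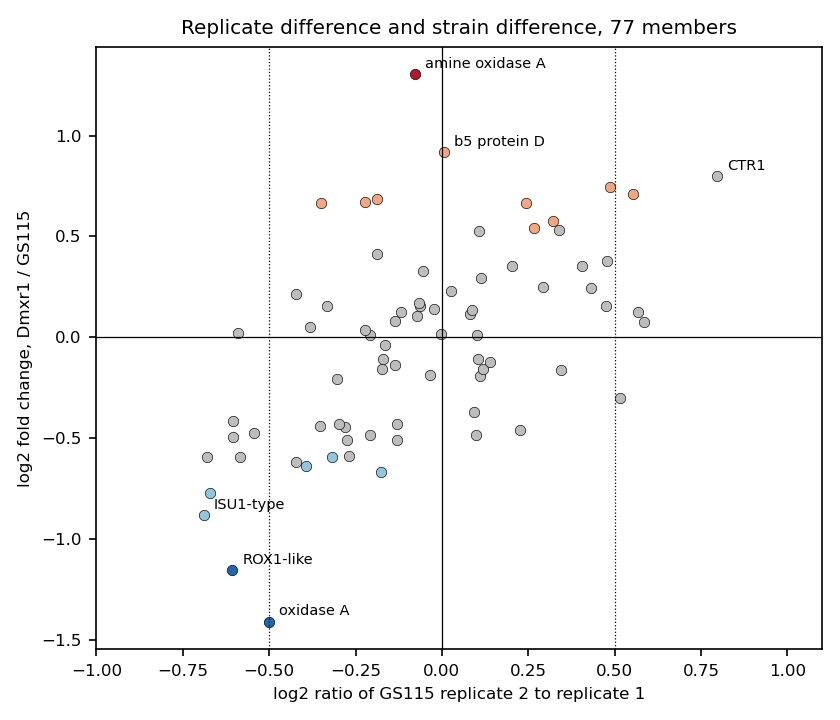
Log2 ratio of Dmxr1 over GS115 against the log2 ratio of GS115 replicate 2 to replicate 1 for the 77 members; colours are as in the plot of fold changes by role, and dotted lines mark 0.5 in either direction. CTR1 shows a strain difference of 0.80 beside a replicate difference of 0.80, while copper amine oxidase A lies near 0 on the replicate axis.

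The 11 rows that the wording of the rule dropped are mostly subunits of the respiratory chain or proteins of its assembly. Some of the subunits use these cofactors, and others are described as non-heme proteins. The rest are the copper chaperone of superoxide dismutase and a pair of ferric reductases that the word NADH removed. In edgeR 0 of the 11 passed the adjusted p, against 15.5% of all genes, and their median log2 ratio was 0.33. At an unadjusted p under 0.05, 1 was lower and 3 were higher, against 18.5% and 13.5% of all genes, and DESeq2 placed 2 higher at its adjusted p, against 6.75%. The ferric reductases stood at -0.40 and 0.37.

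Of 16 other rows for metal handling, mainly of zinc and manganese, 2 passed the adjusted p, against 15.5% of all genes. A vacuolar zinc transporter (ACIB2EUKG770966) stood at -0.66 (adjusted p = 0.0204) and a Golgi protein of manganese homeostasis (ACIB2EUKG772240) at -0.76 (adjusted p = 0.0195). The list had a median of -0.08. A list of Fe-S and heme machinery outside the members held 24 rows with a median of 0.13, after 1 row was set aside that matched only through the letters of "Life-span". The latter, ACIB2EUKG770368, stood at -1.30 (adjusted p = 0.00296). The 24 rows include subunits of respiratory complex I, at 0.31, 0.49, 0.55 and 0.65. These are not assembly machinery, so the median is not that of the machinery alone. Of the 24, 3 passed the adjusted p, against 15.5% of all genes. The cytosolic assembly factor DRE2 (ACIB2EUKG768879) had 492 and 330 CPM in GS115 and 179 and 256 CPM in Dmxr1, in the same library order as the scaffold protein, with a log2 ratio of -0.92 (adjusted p = 0.0163). Glutaredoxin-7 stood at -0.63 and a complex I subunit at 0.65.

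The last list held 15 other rows found by the names of heme proteins or of sulfite reductase, and had a median of 0.27. Some of these rows are reductases of cytochrome P450 or b5 and not heme proteins themselves. The row ACIB2EUKG770539, described as like ferredoxin reductase, is also in the list of Fe-S and heme machinery. Of the 15 rows, 2 were higher at the adjusted p, against 5.07% of all genes. The 2 were the cytochrome b subunit of succinate dehydrogenase (ACIB2EUKG769080), at 0.88 (adjusted p = 0.00753), and the flavoprotein alpha component of sulfite reductase (ACIB2EUKG772656), at 0.91 (adjusted p = 0.00728). The beta subunit of sulfite reductase (ACIB2EUKG770835) stood at 0.58 (adjusted p = 0.0750). Sulfite reductase uses the siroheme that MET1 and MET8 help to make, and both of those stood at -0.51.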

How the data were processed

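RNA of the 4 cultures was depleted of ribosomal RNA and made into libraries with the NEBNext Ultra II kit, per the labels. The submitters' processing notes name bcl2fastq 2.19.0.316, fastp 0.19.6, Bowtie2, featureCounts 1.6.4 and DESeq2, and the study aligned to the *K. phaffii* reference genome that its methods name. The authors deposited unnormalized read counts for each gene. How strand and multiply aligned reads were handled is not given in the sources used here. Values of genes that overlap, lie antisense or have near copies are therefore uncertain. The count table had 5427 rows, 162 of them without a gene identifier, and 0 per-sample columns without a matching sample. Of its rows, 0 matched the reference gene table supplied for this work, so names come from the annotation text of the count table.

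A minimum of 5 counts in 2 or more libraries kept 5425 genes. The strains were compared in R 4.3.3 by the quasi-likelihood test of edgeR 4.0.16 on all 4 libraries, scaled by TMM, and p was adjusted by Benjamini and Hochberg's method over these genes. DESeq2 1.42.0 was an alternative and is named where used. The standard error was taken from the log2 ratio and its F statistic, as the former over the root of the latter. CPM values use the TMM-scaled library sizes. The test was checked on simulated data.

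Members were found by text search, and roles were set by hand from the annotation. Named were the members past the adjusted p and, in each of the 7 roles, the member with the highest mean CPM, uncorrected for length, and those with the lowest and highest log2 ratio. Others were named after their values were seen. The members, roles and lists were chosen with earlier results of these data known. Alternatives were other scalings, no filter on low counts, DESeq2, a replicate block and leaving out each library, and a crossed block was added after seeing the data. With 1 library left in a strain, that library is assumed to vary like those of the other strain.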

Additional observations from a re-analysis of the deposited data

How the results depend on the processing

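The members called lower numbered 2 in the fit reported and 1 with a replicate block, and ranged from 1 to 4 when a library was left out. The members called higher numbered 1 and ranged from 1 to 4. At the adjusted p alone, 7 were lower, and the count was 1 with the replicate block and between 1 and 17 when a library was left out. The 10 higher compare with 3 under the replicate block, of which 2 are among the 10 and the third is CTR1, and with between 4 and 12 when a library was left out. The extremes were 17 lower and 12 higher without GS115 replicate 2, and 1 lower and 4 higher without Dmxr1 replicate 1. The called members that kept their call under every alternative were multicopper oxidase A and copper amine oxidase A. The ROX1-like repressor lost it in 3, of which the replicate block gave -1.16 (adjusted p = 0.0535 in edgeR). Of 264 values of named members under the alternatives, 253 left the call by both thresholds as it was, 8 were newly called and 3 lost their call. At the adjusted p alone, 48 lost significance and 15 gained it. The sign turned in 3 values, of multicopper oxidase B (-0.07 without GS115 replicate 2 and without Dmxr1 replicate 2) and cytochrome c heme lyase (-0.15 without Dmxr1 replicate 2), neither of them past the adjusted p.

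Other scalings, DESeq2 and the lack of a filter left between 5 and 8 members lower and between 10 and 13 higher at the adjusted p. Deviations of libraries with the same number correlated at -0.14, and those of libraries with crossed numbers at 0.14. With 2 libraries per strain these are a single value with its sign turned. Whether the replicate numbers pair the libraries cannot be told from it. A crossed replicate block, added after seeing the data, gave 13 lower and 12 higher at the adjusted p. With 2 libraries per strain, the precision is set by the spread between libraries more than by depth.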
